A study of Mus musculus with 4 samples.

Results

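The spots described here are the epithelial spots of newborn mouse esophagus that lay at the 2 ends of a keratin ratio: 104 spots with the highest and 104 with the lowest ratio, 208 of the 7458 spots over tissue in the study's 4 sections. The study laid fresh frozen sections, 8 µm thick, of wild-type, untreated mice on Visium slides, which capture polyadenylated RNA in a grid of barcoded spots. One section each came from embryos at E13.5 and E16.5, and 2 sections came from the esophagus at P0, the day of birth. The P0 sections are called replicate 1 and replicate 2 here. The labels name no strain, no sex and no animal behind a section, so the spread between these 2 sections may be technical. The model behind the p-values below takes out the difference in level between the sections. The p-values rest on how the difference between the 2 ends varied from section to section. That variation was taken as a trend over all genes, not from each gene's own spread. A spot is a small region that can hold several cells of different types, so no spot is a basal or a suprabasal cell.

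Members were chosen by 9 genes, separately in each section. Spots over tissue with at least 500 UMIs (363 in replicate 1 and 264 in replicate 2) were ranked by an epithelial score. This score is the mean of log(1 + UMIs per 10000) over Epcam, Cdh1, Perp and Dsp, genes of epithelial adhesion and desmosomes. The 50% with the highest score were kept as epithelial spots (181 and 132). These were ordered by log2 of the UMIs of Krt5, Krt14 and Krt15 plus 1 over the UMIs of Krt4 and Krt13 plus 1, and divided in 3. The end with the highest ratio, labelled basal-leaning, held 60 and 44 spots, and the end with the lowest ratio, labelled suprabasal-leaning, also held 60 and 44. A middle group of 61 and 44 spots and the 182 and 132 less epithelial spots were used only for reference. The 9 selecting genes were left out of every test, and their values are a description.

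The esophagus is lined by a stratified squamous epithelium. Cells of its basal layer divide, sit on a basement membrane through hemidesmosomes and make the keratins Krt5 and Krt14. Cells that leave this layer stop dividing, switch to Krt4 and Krt13, join through desmosomes and tight junctions, and build a cross-linked protein envelope, surface proteases and barrier lipids as they move toward the lumen.

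The selecting genes matched the labels only in part. Krt5 was at 1414 and 1474 UMIs per 1000000 (CPM) in the high-ratio sums of replicate 1 and replicate 2, and at 901 and 825 CPM in the low-ratio sums. Krt14 was at 372 and 448 CPM against 150 and 191 CPM. Krt15, which supplied most UMIs of the numerator, ran the other way, with 7768 and 8213 CPM in the high-ratio sums and 9222 and 9561 CPM in the low-ratio sums. The 3 numerator keratins together were at 9554 and 10135 CPM against 10273 and 10577 CPM, so the high-ratio spots did not hold more of them. The denominator set the order: Krt4 and Krt13 together were at 19106 and 17490 CPM in the high-ratio sums and at 40435 and 38042 CPM in the low-ratio sums. The ratio was above 0 in only 5 and 3 spots of the high-ratio end, and its medians were -0.98 and -0.90 there against -1.96 and -1.77 at the low-ratio end. The genes with the largest differences on the high-ratio side, given below, included matrix and globin genes. The 2 ends are therefore called high-ratio and low-ratio spots from here on.

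**Figure D1:**
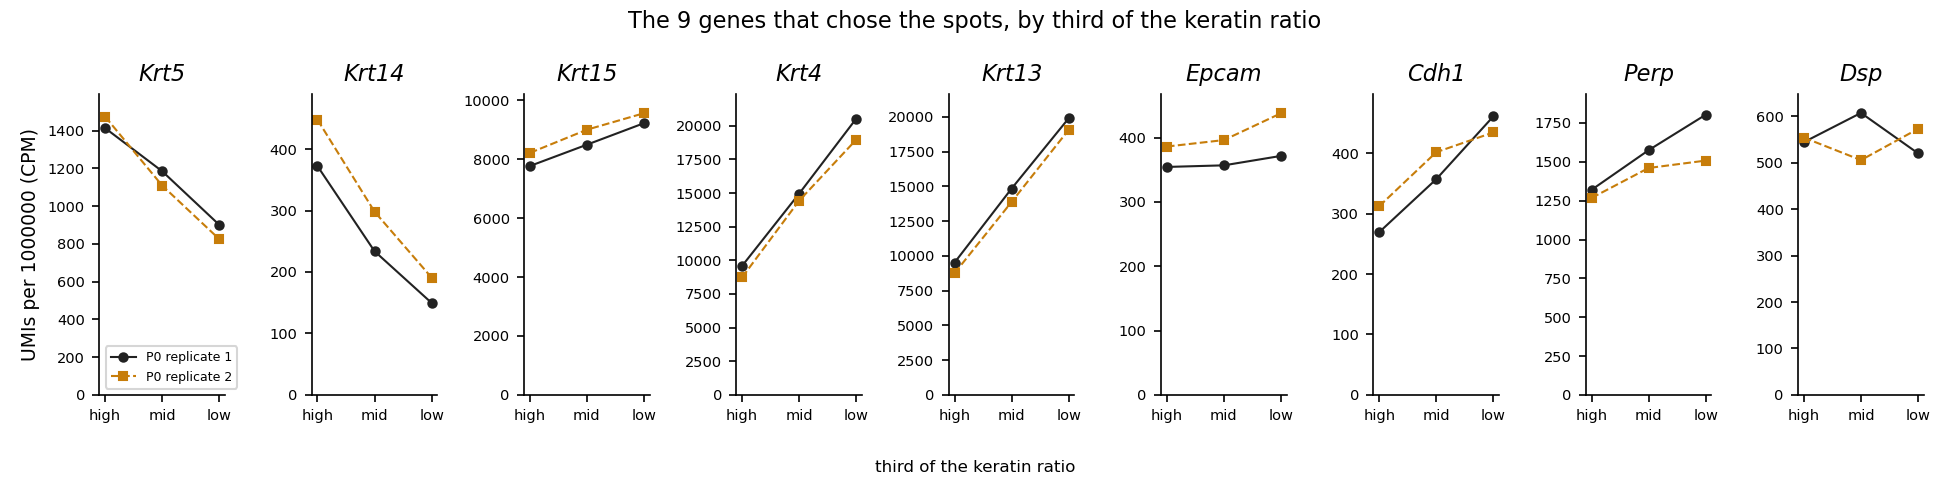
Levels (CPM, vertical axes, each from 0) of the 9 genes that chose the spots, in the high-ratio, middle and low-ratio spots of each P0 section (1 line per section). Krt5 and Krt14 fall and Krt4 and Krt13 rise from left to right, while Krt15 rises from 7768 to 9222 CPM in replicate 1 and from 8213 to 9561 CPM in replicate 2.

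The limits between the groups were not gaps. The lowest ratio of a high-ratio spot was -1.37 in replicate 1 and -1.26 in replicate 2, and the highest ratio of a middle spot was -1.39 and -1.28. The highest ratio of a low-ratio spot was -1.79 and -1.63, and the lowest ratio of a middle spot was -1.78 and -1.63. Within 0.1 of the upper limit lay 27 and 21 spots, and within 0.1 of the lower limit lay 27 and 27.

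The 2 ends also differed in measures that the ratio did not use. Median UMIs per spot were 26610.5 and 29519 in the high-ratio spots and 36924 and 36341 in the low-ratio spots, so the high-ratio spots were shallower in both sections. The epithelial score had medians of 1.77 and 1.77 in the high-ratio spots and 1.99 and 1.97 in the low-ratio spots. Transcripts of the mitochondrial genome took a median of 4.53% and 5.60% of UMIs in the high-ratio spots and 6.53% and 6.27% in the low-ratio spots. Ribosomal protein genes took 23.1% and 21.6% against 16% and 15.2%. The part of depth, epithelial score and RNA composition in the differences below was not tested, and counts within 3 bins of the epithelial score are given below for part of the lists.

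In both sections the tissue lay as separate pieces on the grid, and every piece of at least 20 spots held both kinds of spot. Of the grid neighbours of high-ratio spots, 29.0% and 19.7% were themselves high-ratio and 12.4% and 22.4% were low-ratio. Of the neighbours of low-ratio spots, 31.3% and 37.5% were low-ratio and 13% and 19.3% were high-ratio. Less epithelial spots made up 37.3% and 28.9% of the neighbours of high-ratio spots and 32.2% and 24.4% of those of low-ratio spots. The pieces were not alike. In replicate 1, 1 piece held 15 low-ratio and 2 high-ratio spots (median ratio of its epithelial spots -1.96) and another held 11 high-ratio and 1 low-ratio spot (median -1.29). In replicate 2, 1 piece held 14 high-ratio and 3 low-ratio spots (median -1.37).

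**Figure D2:**
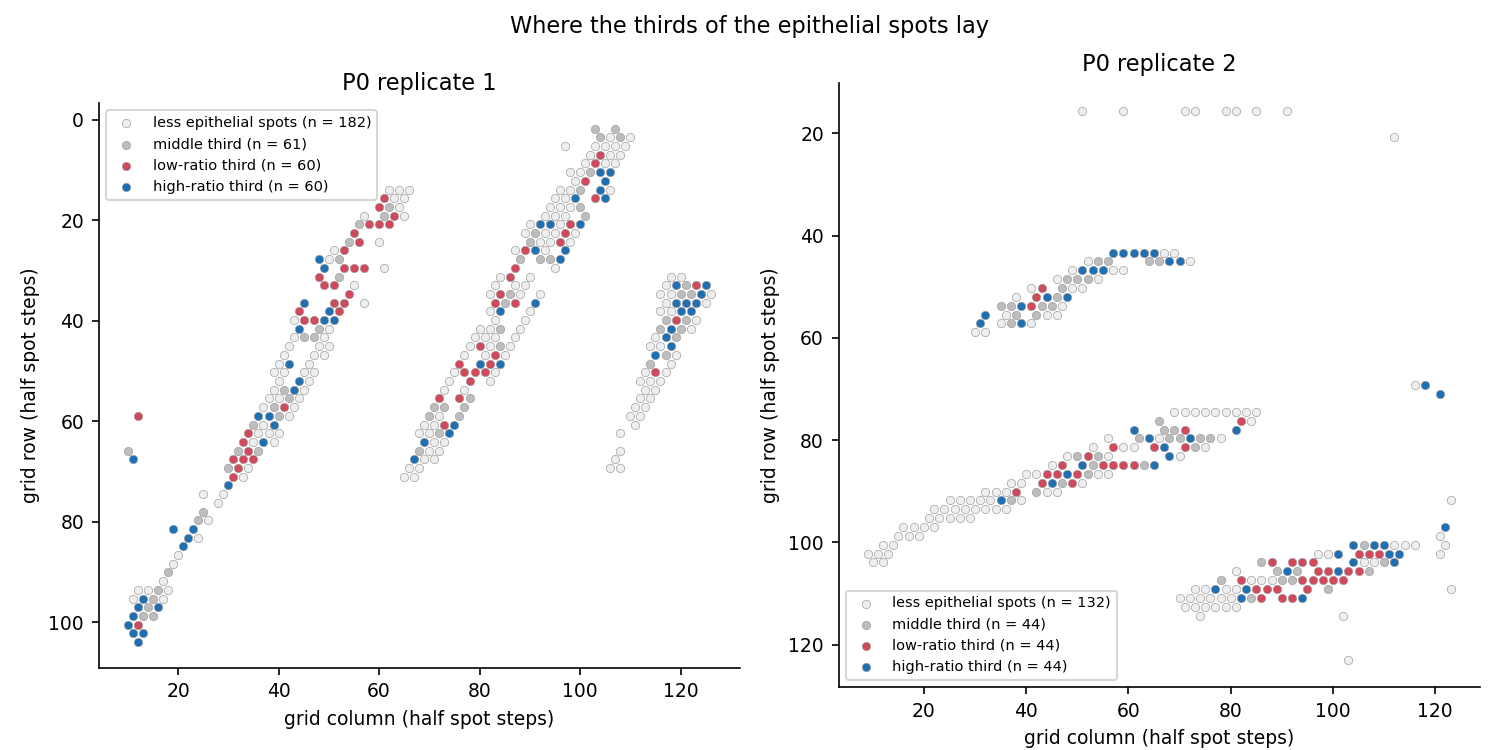
Grid positions of all spots over tissue with at least 500 UMIs in each P0 section, with high-ratio spots in blue, low-ratio spots in red, middle spots in dark grey and less epithelial spots in light grey. Both colours occur in every piece of at least 20 spots, but 1 piece of replicate 2 holds 14 high-ratio and 3 low-ratio spots.

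Across the whole transcriptome, UMIs were summed over the spots of each end of each section, which gave 4 sums of 1297616 to 2185474 UMIs. The sums were compared with edgeR's quasi-likelihood test in a model that blocked on section, and p-values were adjusted by Benjamini-Hochberg. Fold changes are log2 of high-ratio over low-ratio spots, ± the standard error of the fit, with n = 2 sections on each side. Of 10842 genes tested, 1357 (12.5%) were higher in the high-ratio spots and 1853 (17.1%) were higher in the low-ratio spots, and the median over all genes was 0.03. The fit had 1 residual degree of freedom, and it took every gene's spread from the trend over all genes, not from that gene's own 2 sections. DESeq2's Wald test on the same sums called 177 and 653 genes. The numbers also turned on the scaling: with library totals and no TMM scaling factors, an alternative added after the data were seen, the median over all genes rose to 0.20, 2247 genes were higher in the high-ratio spots and 1291 in the low-ratio spots, and the share of calls on the high-ratio side rose from 42.3% to 63.5%. CPM values below use library totals, so a fitted fold change sits lower than the ratio of the CPM values by about this shift.

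Nearly all calls pointed the same way in both sections, 1348 of 1357 and 1850 of 1853, and 405 and 722 of them had a fold change of at least 1 on the log2 scale. The middle spots lay between the 2 ends in both sections for 1092 of the 1357 genes (80.5%) and 1121 of the 1853 (60.5%). The called genes were also set against the less epithelial spots, in a comparison chosen after the values were seen. Of the genes higher in low-ratio spots, 1684 (90.9%) were lower in the less epithelial spots of both sections than in the low-ratio spots, against 29.9% of all genes tested, but these genes had been chosen as high in the group they were compared with. Of the genes higher in high-ratio spots, 822 (60.6%) were higher in the less epithelial spots of both sections than in the high-ratio spots, against 39.6% of all genes tested, and 326 (24.0%) were lower there, against 35.5%. These genes, too, had been chosen as high in the group they were compared with, as were the called list members compared in this way below.

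**Figure D3:**
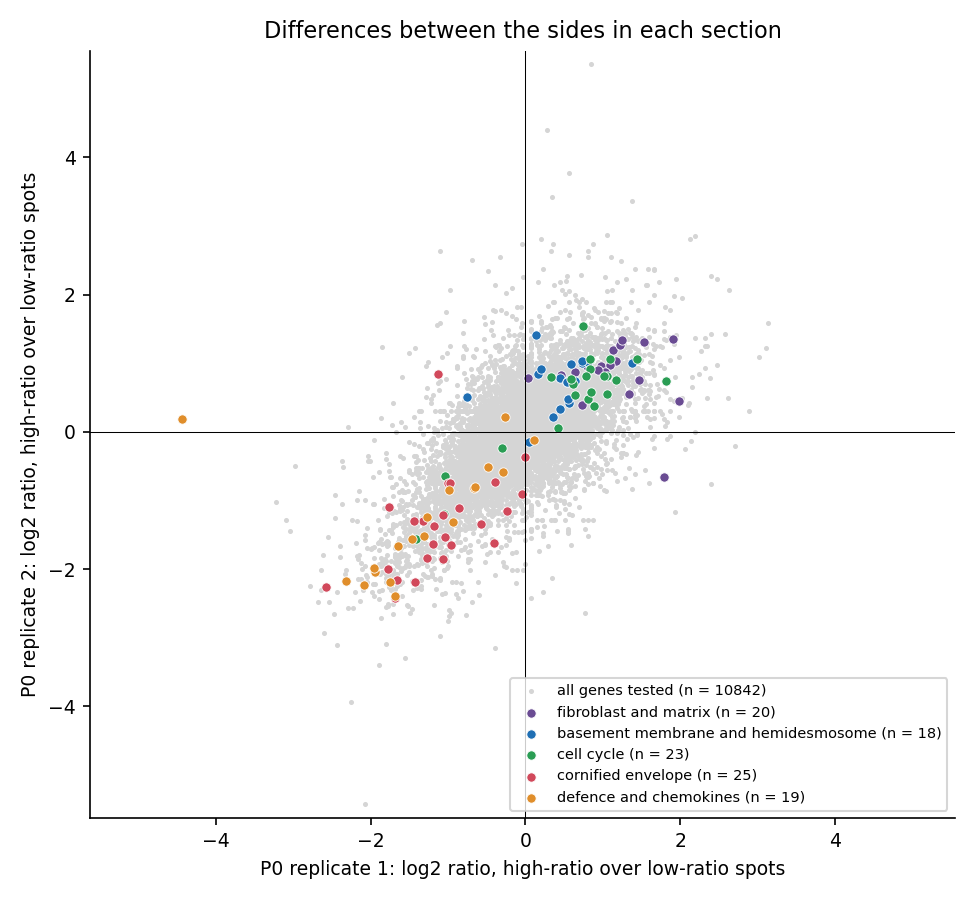
Log2 ratio of high-ratio over low-ratio spots in replicate 1 (horizontal) and replicate 2 (vertical) for the 10842 genes tested, 1 point per gene after TMM scaling, with 5 gene lists coloured. Most fibroblast, basement membrane and cell cycle genes lie above 0 in both sections and most cornified envelope and defence genes below 0 in both.

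The genes that anchor basal cells were higher in the high-ratio spots. Of 18 tested genes of the basement membrane and hemidesmosome (19 listed), 14 were called higher, none was called lower, and the list's median was 0.60. Col7a1, which makes the anchoring fibrils under the epithelium, was at 88.5 and 85.5 CPM in the high-ratio sums, 51.2 and 65.8 CPM in the middle sums and 30.2 and 35.7 CPM in the low-ratio sums. The groups did not overlap, and the fold change was 1.21 ± 0.16 (edgeR adjusted p = 4.64e-12). Col17a1, the hemidesmosomal collagen, was at 399 and 505 CPM in the high-ratio sums and 244 and 257 CPM in the low-ratio sums (0.64 ± 0.12, edgeR adjusted p = 4.1e-06). Its partner integrin chain Itgb4 was at 187 and 240 CPM against 123 and 117 CPM (0.61 ± 0.13, edgeR adjusted p = 3.52e-05). Both genes were lower again in the less epithelial spots, where Col17a1 was at 125 and 147 CPM and Itgb4 at 83.6 and 77.6 CPM. The laminin chain Lamb3 (0.91 ± 0.14), the laminin receptor Bcam (0.88 ± 0.13) and the integrin chain Itga3 (0.86 ± 0.17) were called with them, as was Dst (0.69 ± 0.13). The integrin chain Itga6, the partner of Itgb4, was at 35.3 and 58.6 CPM against 27.9 and 27.3 CPM. Its call (0.51 ± 0.20, edgeR adjusted p = 0.0397) leaned on replicate 2, with log2 ratios of 0.17 and 0.85 in the 2 sections, and it did not pass within bins of the epithelial score (edgeR adjusted p = 0.109), with no block (edgeR adjusted p = 0.112) or with DESeq2 (adjusted p = 0.565). Plec (-0.05), Cd151 (0.30), Fermt1 (-0.12) and Fras1 (0.58) did not pass the test. Of the 14 called genes, 10 were lower in the less epithelial spots of both sections than in the high-ratio spots and 3 were higher. Over all genes tested 35.5% were lower there and 39.6% higher, but the 14 had been chosen as high in the high-ratio spots. With the ends of the ratio taken within 3 bins of the epithelial score, 11 of 18 were called higher and the median was 0.55, and DESeq2 called 5.

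Other genes known from basal progenitors were in part higher in the high-ratio spots. Of 17 tested, 8 were higher there and 3 were lower (median 0.54), against 12.5% and 17.1% of all genes tested. The share called lower was thus near that of all genes. Within bins of the epithelial score 6 of 16 were higher and 3 lower (median 0.11), in the 25% of spots with the highest score 5 of 15 and 2 (median 0.14), and without replicate 2 the median was 0.16. Of the 8 genes called higher, 5 were higher in the less epithelial spots of both sections than in the high-ratio spots and 3 were lower. The podoplanin gene Pdpn was at 85.2 and 112 CPM against 42.1 and 48.9 CPM (0.90 ± 0.15, edgeR adjusted p = 9.46e-08). The phosphatase gene Ptprz1 was at 25 and 30.8 CPM against 9.15 and 14.7 CPM (1.03 ± 0.27), and Igfbp2, a binder of insulin-like growth factors, was at 99.9 and 50.9 CPM against 39.4 and 19.4 CPM (1.16 ± 0.17). In the less epithelial spots Igfbp2 was higher still, at 180 and 100.5 CPM, while Ptprz1 was lower, at 11.2 and 19.5 CPM. Cd44 (0.89 ± 0.22) and Cdh3 (0.69 ± 0.19), the P-cadherin gene, were higher too. Aqp3, a water and glycerol channel, ran the other way at 364 and 358 CPM against 592 and 572 CPM (-0.90 ± 0.12), as did the tetraspanin gene Cd9 (-0.69 ± 0.12). Slc2a1, the glucose transporter, had the smallest called difference of the list (-0.45 ± 0.17), at 57.0 and 36.2 CPM against 59.9 and 52.6 CPM. This call did not pass within bins of the epithelial score (edgeR adjusted p = 0.475), with no block (edgeR adjusted p = 0.122) or with DESeq2 (adjusted p = 0.468). Ngfr, a receptor used to mark basal cells, was too low to be tested, at 1.63 and 0.77 CPM against 1.37 and 0 CPM.

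Among 18 tested transcription factors of progenitor cells, 2 were higher, 2 were lower and 14 did not pass the test, a share on the high-ratio side near the 12.5% of all genes. Trp63, the p63 gene that maintains stratified epithelium, was at 148 and 143 CPM in the high-ratio sums, 109 and 128 CPM in the middle sums and 82.4 and 93.6 CPM in the low-ratio sums. It was higher in the high-ratio spots by 0.53 ± 0.14 (edgeR adjusted p = 0.000807). Nfix was the other factor called higher (0.72 ± 0.16), but it was at 0.29 within bins of the epithelial score (edgeR adjusted p = 0.243) and at 0.15 in the 25% of spots with the highest score (edgeR adjusted p = 0.782). It stood at 80.9 and 80.1 CPM in the high-ratio sums, 45.8 and 38.4 CPM in the low-ratio sums and 128 and 141 CPM in the less epithelial spots. DESeq2 called neither Trp63 (adjusted p = 0.189) nor Nfix (adjusted p = 0.137) higher. Runx1 (-1.65 ± 0.16) and Klf5 (-0.67 ± 0.12) were called lower. Sox2 was at 197 and 201 CPM against 201 and 187 CPM and had a fold change of -0.17 ± 0.13 (edgeR adjusted p = 0.342), which became 0.00 without scaling factors. Lgr5, a receptor for R-spondins, was near the detection limit at 9.23 and 13.9 CPM against 5.49 and 11 CPM, and its difference of 0.30 ± 0.37 did not pass the test (edgeR adjusted p = 0.599).

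Proliferation genes were higher in the high-ratio spots and inhibitors of the cell cycle were lower. Of 23 tested cell cycle genes, 17 were called higher, 3 were called lower and 3 were not called (median 0.73). Mki67, a marker of cycling cells, was at 87.9 and 87.1 CPM in the high-ratio sums, 58.2 and 51.7 CPM in the middle sums and 36.6 and 35.2 CPM in the low-ratio sums (1.08 ± 0.16, edgeR adjusted p = 4.56e-10). Ccnb1, a mitotic cyclin, was at 58.6 and 41.6 CPM against 14.6 and 21.0 CPM (1.32 ± 0.22), and its kinase Cdk1 at 80.3 and 69.4 CPM against 26.1 and 27.9 CPM (1.28 ± 0.18). The replication genes Mcm2, Mcm3, Mcm5, Mcm6, Pcna and Tyms were all called higher, by 0.56 to 0.93. The 3 genes called lower were the inhibitors Cdkn2b (-1.49 ± 0.19), Cdkn1a (-1.12 ± 0.13) and Cdkn1c (-0.86 ± 0.14). Cycling was not particular to the high-ratio spots: Mki67 stood at 86.2 and 78.4 CPM in the less epithelial spots, and of the 17 called genes 7 were higher there in both sections than in the high-ratio spots and 3 were lower. Within bins of the epithelial score 15 genes were called higher and 3 lower (median 0.67), and DESeq2 called 3 and 3.

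The promoters of 2 cell cycle genes are shown because most called members of this list with a promoter in the table held at least 1 of the motifs below. Each line gives 250 bases up to the annotated start, 5′ to 3′ on the gene's strand, from RefSeq on GRCm38.p6. Capitals mark CCAAT and TTTGAA, the CCAAT box and the cell cycle homology region, read on either strand, so ATTGG is CCAAT on the other strand. The Cdk1 window is chr10:69352913-69353162 on the minus strand and the Mki67 window is chr7:135716380-135716629 on the minus strand. The annotated Mki67 gene reaches 135716450, so part of the Mki67 window lies inside the gene.
Cdk1: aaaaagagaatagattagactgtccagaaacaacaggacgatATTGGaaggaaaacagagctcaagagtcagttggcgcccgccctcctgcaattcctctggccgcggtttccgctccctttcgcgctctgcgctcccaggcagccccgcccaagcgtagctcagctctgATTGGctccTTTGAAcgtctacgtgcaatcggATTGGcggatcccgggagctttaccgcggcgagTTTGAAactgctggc
Mki67: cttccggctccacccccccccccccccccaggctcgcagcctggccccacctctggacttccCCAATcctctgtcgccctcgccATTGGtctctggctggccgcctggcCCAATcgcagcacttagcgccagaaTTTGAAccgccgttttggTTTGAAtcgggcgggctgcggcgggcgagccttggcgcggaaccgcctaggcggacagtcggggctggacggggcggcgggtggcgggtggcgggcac
In the window from 250 bases before to 50 after the start, searched on both strands, CCAAT occurred in 12 of the 14 called cell cycle genes that had a promoter in the table (85.7%), in 38.7% of the 8633 tested genes with a promoter and in 37.9% of all 27025 promoters. TTTGAA occurred in 7 of the 14 (50%), in 11.6% of tested genes and in 18.1% of all promoters. Of the 1076 genes called higher in high-ratio spots that had a promoter, 38.4% held CCAAT and 14.4% held TTTGAA. The high shares were thus those of the cell cycle list, not of that side as a whole. The motifs and the promoters printed were chosen after the list results and the matches were seen, and a match is a description of letters, not a bound site.

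The 12 genes with the highest fold change among those that were also lower in the less epithelial spots were a filter chosen after these values were seen. Cenpf (1.10 ± 0.25), Mki67 and Col7a1 of the 12 were on the lists above. The others were Card10, Adamts1, Zbed3, Spef1, Hmces, Timm8a1, Plk1, a mitotic kinase (1.15 ± 0.26), Kif23, a motor of cytokinesis (1.05 ± 0.21), and Mcm4, a replication gene (1.04 ± 0.19). Card10 was at 29.3 and 32.4 CPM in the high-ratio sums, 11 and 11 CPM in the low-ratio sums and 18.0 and 19.5 CPM in the less epithelial spots (1.27 ± 0.27, edgeR adjusted p = 2.99e-05). Adamts1, a matrix protease, was at 44.0 and 70.9 CPM against 17.4 and 23.7 CPM (1.26 ± 0.21), and its value of 0.44 did not pass when the ends were taken within each tissue piece (edgeR adjusted p = 0.087).

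Ribosomal protein genes, a list added after the values were seen, were also higher. Of 76 tested, 40 were called higher and none lower (median 0.31), and 73 were higher in both sections. The count of calls moved with the processing: 75 were called with library totals (median 0.49), 66 within bins of the epithelial score (0.35), 26 by DESeq2, 17 with the middle spots in the fit, 9 with the epithelial score taken from Epcam and Cdh1 alone (0.24) and 8 in the 25% of spots with the highest score (0.34). Their summed share of UMIs was 23.4% and 22.7% in the high-ratio sums, 21.8% and 18.0% in the middle sums and 16% and 16.1% in the low-ratio sums. All 40 called genes, chosen as high in the high-ratio spots, were lower in the less epithelial spots of both sections, against 35.5% of all genes tested. The summed share of the list there was 19.0% and 18.4%.

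Genes of the tissue under the epithelium were higher in the high-ratio spots. The 12 genes with the largest fold change at a mean of at least 20 CPM were Hba-a1, Mfap4, Hba-a2, Htra1, Plxnd1, Ifi27l2a, Plekhg2, Eln, C1qb, Col8a1, Scara3 and Col6a2, from 1.71 down to 1.43. Of 20 fibroblast and matrix markers, 18 were called higher, none lower, and the median was 1.0. Mfap4, a microfibril protein, was at 199.7 and 140.3 CPM in the high-ratio sums and 47.1 and 46.3 CPM in the low-ratio sums (1.67 ± 0.15, edgeR adjusted p = 1.36e-27). Eln, the elastin gene, was at 398 and 293 CPM against 113 and 101 CPM (1.48 ± 0.13), and Col6a2 at 361 and 321 CPM against 111 and 109 CPM (1.43 ± 0.13). The summed level of the 20 markers was 8776 and 8421 CPM in the high-ratio sums, 5262 and 6107 CPM in the middle sums, 3680 and 3541 CPM in the low-ratio sums and 20550 and 21951 CPM in the less epithelial spots. In such mixtures fewer cells of a type and less RNA per cell cannot be told apart.

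Markers of vessels, blood cells and immune cells moved with them. Of 8 tested immune markers, 7 were higher (median 1.17), among them the macrophage complement genes C1qb (1.46 ± 0.21) and C1qa (1.20 ± 0.19). The 12 immune markers in the files together reached 270.3 and 281 CPM against 106 and 108 CPM, with Cd3e and Cd207 at 0 in all 4 sums. Of 5 tested endothelial markers 4 were higher, with summed levels over 10 markers of 134 and 85.5 CPM against 47.6 and 45.2 CPM. All 4 tested globin genes were called higher by edgeR and none by DESeq2. Hba-a1 was higher in both sections, at 202 and 87.1 CPM against 34.3 and 42.6 CPM. The beta globin genes rested on replicate 1: Hbb-bs was at 378 and 120 CPM against 73.7 and 101 CPM, and without replicate 1 its log2 ratio was 0.00 and that of Hbb-bt was -0.10. Of 12 smooth muscle markers, 7 were higher and 1, Pcp4, was lower (median 0.42). Of 11 tested striated muscle markers 2 were lower, near the 17.1% of all genes, with 0 called when there was no block and medians from -0.76 to 0.14 as either section was left out. The summed smooth muscle level was 4334 and 2441 CPM against 2642 and 1685 CPM.

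The marker lists were counted again between spots of like epithelial score. Within bins of the score the fibroblast list had 12 of 20 genes called higher with a median of 0.51 in place of 1.0, the immune list 2 of 8, the endothelial list 0 of 5, the smooth muscle list 0 of 12 with 1 lower, and the globins 3 of 4. In the 25% of spots with the highest epithelial score, the fibroblast list had 7 of 18 called higher, the hemidesmosome list 9 of 18 and the cell cycle list 11 of 22 with 3 lower. The part of stromal RNA in the genes called higher in high-ratio spots was not tested beyond these values.

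**Figure D4:**
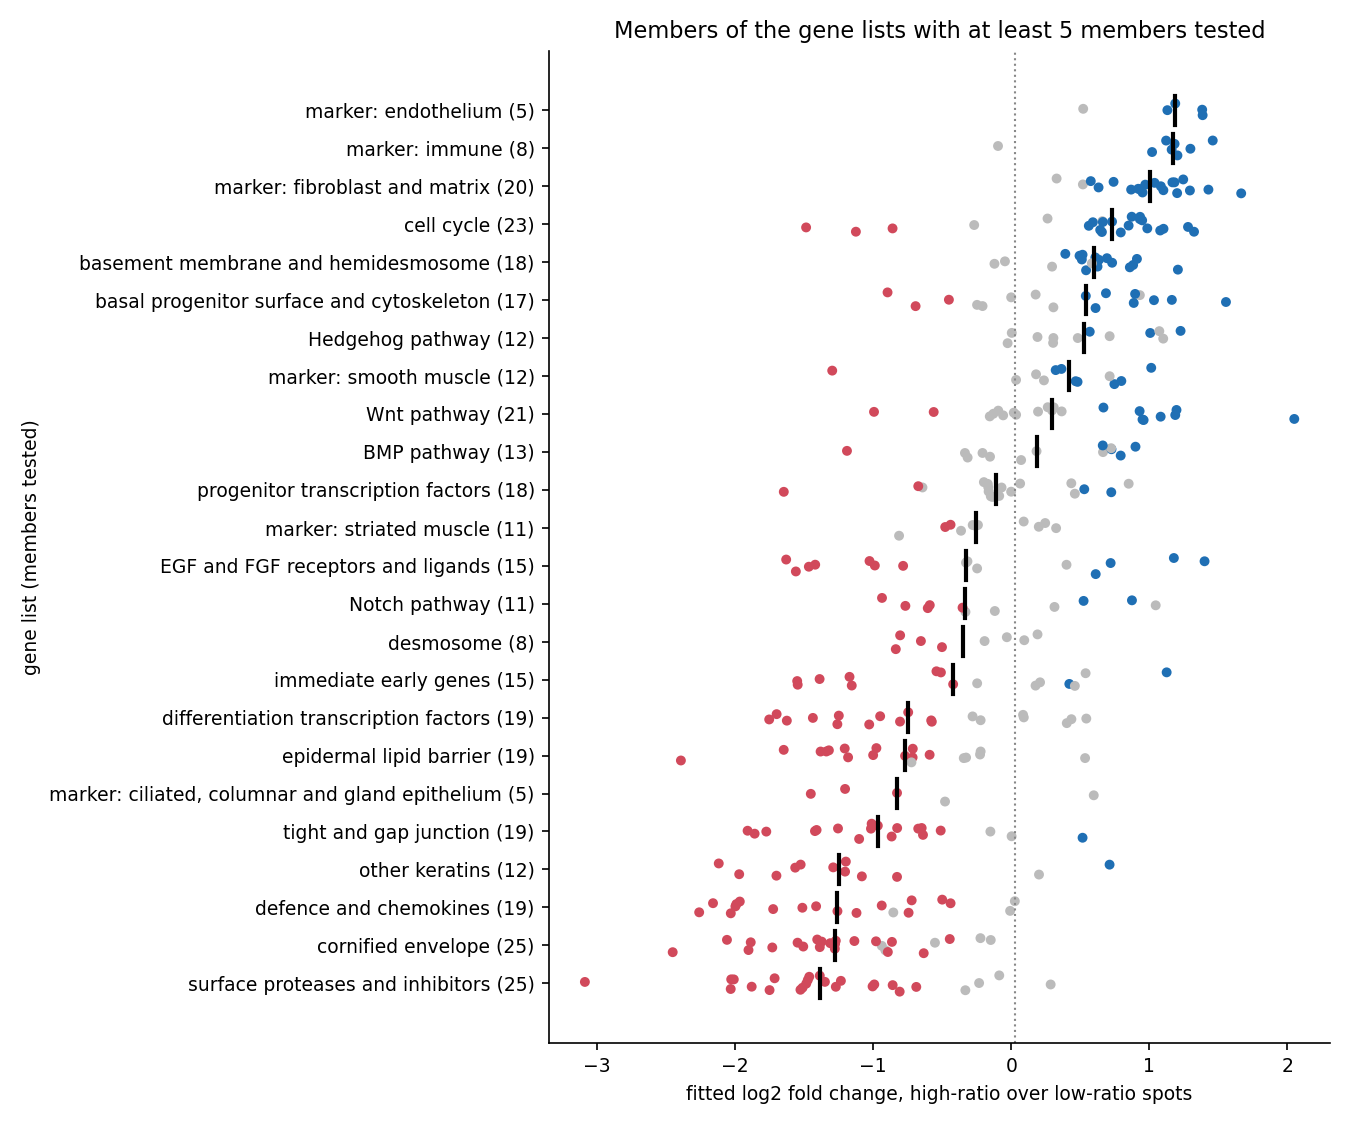
Fitted log2 fold change (horizontal) of each tested member of the gene lists with at least 5 members tested. Blue points were called higher in high-ratio spots, red points higher in low-ratio spots, grey points were not called, black bars are list medians and the dotted line is the median of all genes, 0.03. Fibroblast, smooth muscle, endothelium and immune markers and the cell cycle and basement membrane lists lie to the right. Envelope, protease and defence lists lie to the left, with medians of 1.19 for endothelium and -1.39 for surface proteases. Markers of striated muscle (median -0.26) and of ciliated, columnar and gland epithelium (-0.83) also lie to the left.

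The low-ratio spots carried the products of differentiation. Of 25 tested genes of the cornified envelope (42 in the files, 10 of them at 0 in all 4 sums), 20 were higher in the low-ratio spots, none was higher in the high-ratio spots, and the median was -1.28. Cnfn, the cornifelin gene, was at 666 and 564 CPM in the high-ratio sums, 1269 and 1129 CPM in the middle sums and 1872 and 2123 CPM in the low-ratio sums (-1.90 ± 0.13, edgeR adjusted p = 1.8e-46). Sprr3, a small proline-rich envelope protein, was at 404 and 347 CPM against 870.3 and 1045 CPM (-1.55 ± 0.13), and Sprr2f at 14.7 and 17.7 CPM against 79.2 and 72.5 CPM (-2.45 ± 0.20). Ecm1, an extracellular matrix protein of differentiating keratinocytes, was at 791 and 708 CPM against 2412 and 2389.5 CPM (-1.89 ± 0.13). The cross-linking enzymes Tgm1 (-0.98 ± 0.14) and Tgm3 (-1.37) and the scaffold proteins Evpl (-1.31 ± 0.13) and Ppl (-1.28) were called with them. Late genes of the epidermal program gave no call in 2 cases: Ivl, involucrin, was at 3.80 and 4.62 CPM against 6.86 and 6.83 CPM, and Lor, loricrin, at 7.60 and 17.0 CPM against 15.1 and 7.88 CPM. The Sprr2 genes are near-identical copies, so the division of UMIs among them is uncertain. DESeq2 called 14 of the 25, and 17 of 24 were called within bins of the epithelial score.

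The promoters of 2 envelope genes are shown because each holds both motifs searched for below, which 10 and 8 of the 18 called genes of this list held. Capitals mark TGANTCA, the AP-1 motif, and TATAAA, the TATA box, in the same 250 bases of RefSeq on GRCm38.p6. The Sprr1a window is chr3:92485882-92486131 on the minus strand and the Rptn window is chr3:93393449-93393698 on the plus strand.
Sprr1a: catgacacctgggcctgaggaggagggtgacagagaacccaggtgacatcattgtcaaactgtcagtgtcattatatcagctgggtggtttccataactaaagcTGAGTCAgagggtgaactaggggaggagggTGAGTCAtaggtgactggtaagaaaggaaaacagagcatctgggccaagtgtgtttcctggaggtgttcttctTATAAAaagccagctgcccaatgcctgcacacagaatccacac
Rptn: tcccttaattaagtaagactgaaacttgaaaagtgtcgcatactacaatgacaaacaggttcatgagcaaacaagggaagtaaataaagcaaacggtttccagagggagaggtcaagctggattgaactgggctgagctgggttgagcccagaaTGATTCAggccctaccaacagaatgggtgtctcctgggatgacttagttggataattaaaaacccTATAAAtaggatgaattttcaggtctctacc
In the window from 250 bases before to 50 after the start, TGANTCA occurred in 10 of the 18 called envelope genes with a promoter in the table (55.6%), in 4.90% of tested genes and in 7.93% of all promoters. TATAAA occurred in 8 of the 18 (44.4%), in 6.92% of tested genes and in 14.2% of all promoters. Of the 1435 genes called higher in low-ratio spots that had a promoter, 8.57% held TGANTCA and 9.34% held TATAAA. The high shares were thus those of the envelope list, not of that side as a whole. AACCGGTT, a grainyhead-like motif, occurred in 0 of the 18 and in 0.313% of tested genes. TGANTCA occurred in 5 of 14 called protease and inhibitor genes (35.7%), 3 of 11 called defence genes (27.3%), 0 of 10 called basement membrane genes and 0 of 14 called cell cycle genes. TATAAA occurred in 3 of 14 called protease and inhibitor genes (21.4%), 5 of 11 called defence genes (45.5%), 1 of 10 called basement membrane genes and 0 of 14 called cell cycle genes. Sprr1a was at 354 and 294 CPM in the high-ratio sums and 648 and 715 CPM in the low-ratio sums (-1.28 ± 0.13), and Rptn, repetin, at 11.9 and 11.6 CPM against 34.8 and 53.6 CPM (-2.06 ± 0.25).

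Secreted and membrane proteases and their inhibitors had a median of -1.39, with 21 of 25 tested genes higher in the low-ratio spots and none higher in the high-ratio spots. DESeq2 called 14 higher in the low-ratio spots. Within bins of the epithelial score 18 of 24 were higher there and 1 was higher in the high-ratio spots (median -1.01). In the 25% of spots with the highest score these counts were 13 of 23 and 1. Prss27, a membrane serine protease, was at 313 and 239 CPM against 931 and 995 CPM (-2.01 ± 0.13), and Prss22 at 75.4 and 65.5 CPM against 285 and 216 CPM (-2.03 ± 0.14). Tmprss11b, Tmprss11d, Tmprss11e and Tmprss11g were called together. Tmprss11e had the largest fitted value (-3.09 ± 0.53), but it rested on low levels, 2.71 and 0 CPM against 11 and 13.7 CPM. Inhibitors moved the same way, among them Serpinb11 at 61.3 and 51.6 CPM against 178 and 188 CPM (-1.88 ± 0.15), and Slpi (-1.46) and Spink5 (-1.23).

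Enzymes of barrier lipids followed, with 13 of 19 higher in the low-ratio spots and none higher in the high-ratio spots (median -0.77). The count in the low-ratio spots was 11 of 19 within bins of the epithelial score and 7 with DESeq2. It was 7 of 18 in the 25% of spots with the highest score. Alox12b, a lipoxygenase of the ceramide barrier, was at 11.4 and 8.48 CPM against 48.5 and 44.2 CPM (-2.39 ± 0.26), and Alox15 at 461 and 335 CPM against 992 and 798 CPM (-1.38 ± 0.13). Dgat2, which makes triglycerides, differed by -1.65 ± 0.14, and the ceramide synthase Cers3 by -1.18.

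Of 19 tested genes of epithelial defence, 16 were higher in the low-ratio spots (median -1.26). The count was 14 of 19 within bins of the epithelial score, 11 with DESeq2 and 10 of 16 in the 25% of spots with the highest score. Ltf, lactoferrin, was at 675 and 744 CPM in the high-ratio sums, 1505 and 1834 CPM in the middle sums and 2549.6 and 2953 CPM in the low-ratio sums (-2.16 ± 0.13, edgeR adjusted p = 2.08e-57). Duox2, an oxidase that releases hydrogen peroxide, was at 35.8 and 44.7 CPM against 160.1 and 172 CPM (-2.26 ± 0.16), and its maturation factor Duoxa2 at 48.3 and 57.8 CPM against 215 and 224 CPM (-2.26 ± 0.15). The chemokine gene Ppbp (-2.03 ± 0.13) and the cytokine gene Il1a (-2.0 ± 0.30) were called with them. S100a9 was not called, at 0 and 8.48 CPM against 5.03 and 6.31 CPM.

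The 12 genes with the largest fold change toward the low-ratio spots were Slc13a2, Cidea, Fut9, Sprr2f, Itgam, Muc20, Alox12b, Atg9b, Clca3b, Duoxa2, Duox2 and Slc16a11, from -2.85 to -2.25. Slc13a2, a dicarboxylate transporter, was at 11.4 and 3.85 CPM against 49.4 and 54.7 CPM. Clca3b was at 274 and 256 CPM against 1072 and 1189 CPM (-2.29 ± 0.13). Itgam, known as an integrin chain of myeloid cells, was at 26.0 and 23.9 CPM against 114 and 121 CPM and at 17.0 and 9.37 CPM in the less epithelial spots, opposite to the 7 immune markers that were called. Msln, Upk1b and Upk3b, listed as mesothelial markers, also ran with the low-ratio spots: Msln was at 113 and 136 CPM against 442 and 511 CPM (-2.14 ± 0.13) and at 63.5 and 41.6 CPM in the less epithelial spots, while Wt1 and Lrrn4 of the same list were at 0 in all 4 sums.

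Tight and gap junction genes were mostly higher in the low-ratio spots, 16 of 19 with 1 the other way (median -0.97). Within bins of the epithelial score 13 were higher there with 1 the other way. DESeq2 called 10, and 9 of 19 were called in the 25% of spots with the highest score. Cldn23 was at 113 and 113 CPM against 374 and 363 CPM (-1.91 ± 0.14), Cldn3 at 136 and 139 CPM against 387 and 433 CPM (-1.77 ± 0.13), and the scaffold gene Tjp3 at 48.3 and 58.6 CPM against 157 and 178 CPM (-1.86 ± 0.15). The exception was Gja1, connexin 43, at 74.9 and 89.4 CPM against 54.9 and 43.1 CPM (0.52 ± 0.15, edgeR adjusted p = 0.00468). Its log2 ratios were 0.28 and 0.80 in the 2 sections. The call passed within bins of the epithelial score (edgeR adjusted p = 0.019) but not within tissue pieces (edgeR adjusted p = 0.079). Nor did it pass in the 25% of spots with the highest score (edgeR adjusted p = 0.357) or with DESeq2 (adjusted p = 0.349). Of 8 tested desmosome genes, which exclude the selecting gene Dsp, 4 were higher in the low-ratio spots (Dsc2, Dsg3, Jup and Pkp1, from -0.84 to -0.50) and 4 were not called. DESeq2 also called 4 desmosome genes, while 3 were called within bins of the score and 2 in the 25% of spots with the highest score.

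Keratins outside the rule were mostly higher in the low-ratio spots, 10 of 12 tested (median -1.25). The count was 9 of 12 with DESeq2, within bins of the epithelial score and in the 25% of spots with the highest score. Krt78 differed by -2.12 ± 0.16 and Krt23 by -1.97 ± 0.13. Krt6a was at 1224 and 1141 CPM against 2588 and 2421 CPM (-1.29 ± 0.13), and Krt7, Krt8, Krt18 and Krt19, keratins of simple epithelium, were called the same way, by -1.52, -0.83, -1.20 and -1.08. Krt17 was the 1 keratin called higher in the high-ratio spots, at 588 and 572 CPM against 251 and 375 CPM (0.71 ± 0.12, edgeR adjusted p = 1.5e-07). The keratin pair of epidermal differentiation was low, with Krt10 at 32.0 and 41.6 CPM against 26.5 and 28.4 CPM and Krt1 too low to be tested.

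Transcription factors of differentiation followed the envelope genes, with 12 of 19 tested higher in the low-ratio spots and none higher in the high-ratio spots (median -0.75). The count in the low-ratio spots was 11 within bins of the epithelial score and 9 with DESeq2. In the 25% of spots with the highest score it was 6 of 19, with 1 higher in the high-ratio spots (median -0.39). Hopx, a homeodomain protein, was at 1477 and 1252 CPM against 3799 and 3860.3 CPM (-1.70 ± 0.13). Elf3 was at 175 and 191 CPM against 468 and 513 CPM (-1.62 ± 0.13), and Grhl1, a grainyhead-like factor, at 43.4 and 53.9 CPM against 107 and 121 CPM (-1.44 ± 0.15). Prdm1 (-1.75 ± 0.23), Zfp750 (-1.03), Ovol1 (-1.26) and Klf4 (-0.75 ± 0.14) were called with them. Pax9, a factor of esophageal differentiation, was at 157 and 170 CPM against 168 and 176 CPM and did not pass the test (-0.28 ± 0.13, edgeR adjusted p = 0.0934). Of the 13 protein genes of the mitochondrial genome, a list added after the values were seen, 10 were higher in the low-ratio spots, and all 13 were so in both sections (median -0.46).

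**Figure D5:**
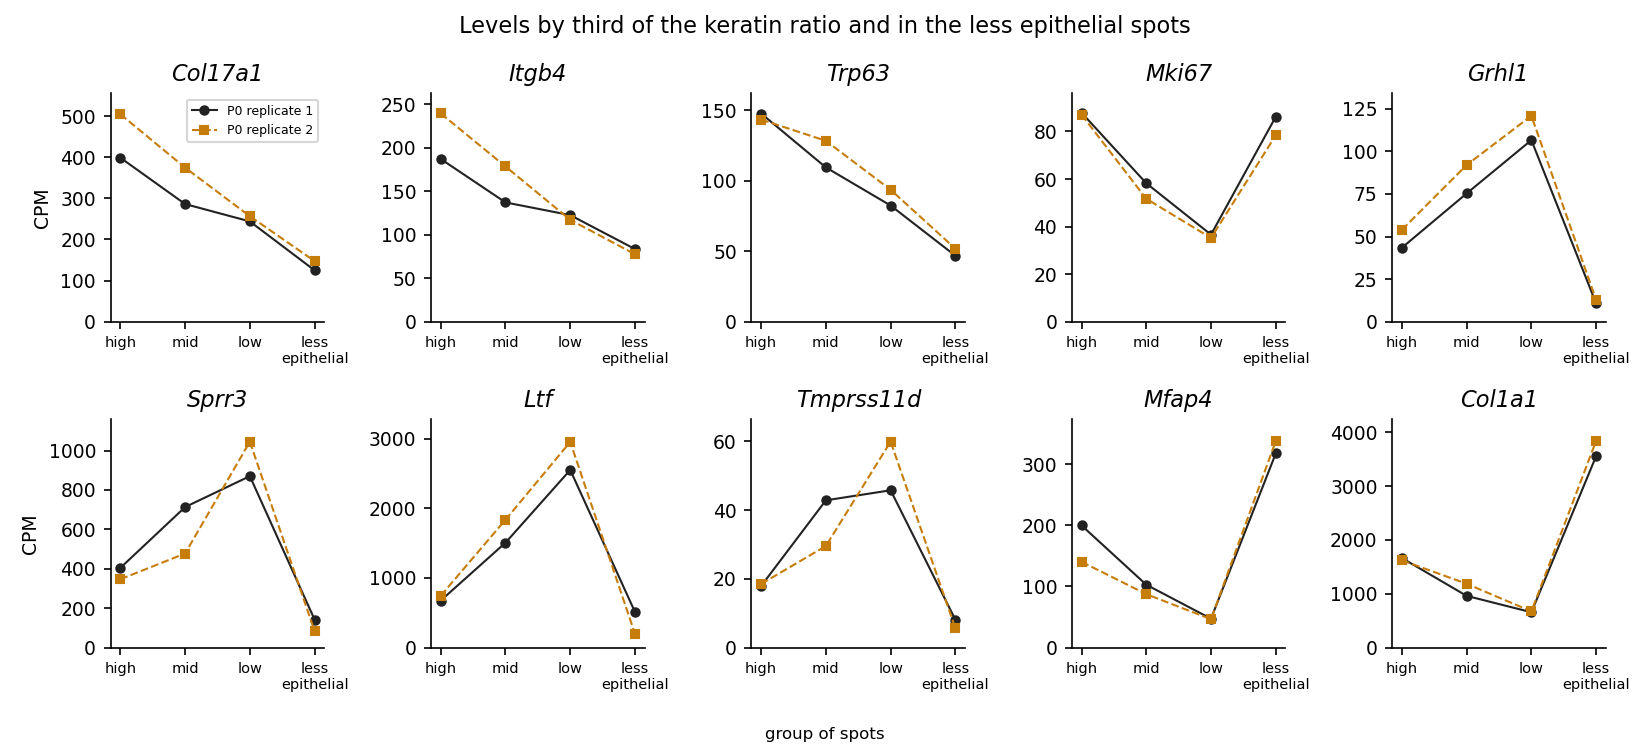
Levels (CPM, vertical axes, each from 0) of 10 genes in the high-ratio, middle, low-ratio and less epithelial spots, 1 line per P0 section, genes chosen after their values were seen. Col17a1, Itgb4 and Trp63 fall from left to right, Grhl1, Sprr3, Ltf and Tmprss11d peak in the low-ratio spots, and Mki67, Mfap4 and Col1a1 are lowest there.

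In the Wnt list, 8 of 21 tested genes were higher in the high-ratio spots and 2 were lower (median 0.30), against 12.5% and 17.1% of all genes. Within bins of the epithelial score 5 were higher and 2 lower, and DESeq2 called 2 higher and 1 lower. Sfrp1, a secreted Wnt antagonist, was at 80.3 and 81.7 CPM against 31.1 and 30.5 CPM (1.19 ± 0.17), and at 193 and 155 CPM in the less epithelial spots. The feedback target Axin2 was at 11.9 and 10.0 CPM against 4.58 and 3.68 CPM (1.20 ± 0.43, edgeR adjusted p = 0.0228). It rested on 52 UMIs in the 4 sums and stood at 17.8 and 16.9 CPM in the less epithelial spots. Its call did not pass within bins of the epithelial score (edgeR adjusted p = 0.119), nor did that of Wnt11 within tissue pieces (edgeR adjusted p = 0.152). Wnt11 (2.05 ± 0.48), Wnt3a (0.95 ± 0.35) and Wnt6 (0.96 ± 0.31) were called higher at no more than 25.4 CPM, whereas the ligand Wnt4, at 216 and 197 CPM against 285 and 244 CPM, was lower (-0.56 ± 0.13), as was Wnt7b (-0.99 ± 0.23). The value of Wnt11 rested on 46 UMIs in the 4 sums.

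Of 12 tested Hedgehog genes 3 were higher in the high-ratio spots, against 12.5% of all genes tested. These were the receptor and target Ptch1 (0.57 ± 0.16), the target Gli1 (1.01 ± 0.29) and the mesenchymal factor Foxf1 (1.23 ± 0.27). All 3 were higher still in the less epithelial spots of both sections, while the ligand Shh, at 38 and 26.2 CPM against 22 and 24.2 CPM, did not pass the test (0.30 ± 0.23, edgeR adjusted p = 0.337). Shh was called higher when the ends were taken within each tissue piece (0.56, edgeR adjusted p = 0.0407), an alternative added after the data were seen. Within bins of the epithelial score 1 of 10 tested Hedgehog genes was called higher. In the BMP list, 4 of 13 tested genes, Bmp7, Bmpr1b, Id3 and Id4, were higher in the high-ratio spots, against 12.5% of all genes. None of the list was called higher within bins of the epithelial score, within bins of depth, in the 25% of spots with the highest score or by DESeq2, and 1 was with no block. Id2 was lower, at 156 and 84.8 CPM against 256 and 218 CPM (-1.19 ± 0.13). Bmpr1b and Id4 turned below 0 in the most epithelial spots, at -0.07 and -0.08.

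In the Notch list, 2 of 11 tested genes were higher in the high-ratio spots and 5 were lower, against 12.5% and 17.1% of all genes tested. The count called higher was thus near the share of all genes. Within bins of the epithelial score 2 were higher and 1 was lower, in the 25% of spots with the highest score 2 and 0, and with the highest and lowest 50% of epithelial spots 2 and 2. Jag2, a ligand, was at 87.9 and 87.9 CPM against 51.2 and 55.2 CPM (0.52 ± 0.15), and Lfng, a modifier of Notch receptors, at 37.4 and 43.9 CPM against 19.2 and 18.9 CPM (0.87 ± 0.23). The ligand Jag1 (-0.60 ± 0.20), the receptor Notch3 (-0.59 ± 0.18) and the target Hes1 (-0.35 ± 0.13) were called lower, and none of these 3 passed within bins of the score (edgeR adjusted p = 0.065, 0.12 and 0.41). Notch1 was not called (-0.33 ± 0.15, edgeR adjusted p = 0.0809). DESeq2 called none of the Notch or Hedgehog genes, and without scaling factors 2 Notch genes were called lower in place of 5.

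Ligands of the EGF receptor were higher in the low-ratio spots. Hbegf was at 39.1 and 47.0 CPM against 109 and 121 CPM (-1.63 ± 0.16), Tgfa at 19.5 and 24.7 CPM against 51.7 and 53.1 CPM (-1.47 ± 0.20), and Ereg, Btc and Areg were called the same way. Their receptor Egfr was at 66.8 and 91.7 CPM against 83.7 and 84.6 CPM and was not called (-0.32 ± 0.15), whereas Erbb2 (-0.78 ± 0.13) and Erbb3 (-1.03 ± 0.14) were. On the FGF side, the receptor Fgfr2 was higher in the high-ratio spots, at 258 and 239 CPM against 157 and 126 CPM (0.61 ± 0.13), and so was its ligand Fgf7, known from mesenchyme, at 10.9 and 10.0 CPM against 2.75 and 4.21 CPM (1.40 ± 0.46). Fgf7 did not pass within bins of the epithelial score (edgeR adjusted p = 0.156) and was at 20.4 and 21.7 CPM in the less epithelial spots.

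Of 15 tested immediate early genes 8 were higher in the low-ratio spots and 2, Jun (0.42 ± 0.14) and Atf3 (1.13 ± 0.43), in the high-ratio spots, the latter near the 12.5% of all genes. Jun had log2 ratios of 0.13 and 0.73 in the 2 sections, and with no block neither Jun (edgeR adjusted p = 0.054) nor Atf3 (edgeR adjusted p = 0.098) passed. DESeq2 called no gene of the list higher. Fos, a subunit of AP-1, was at 19.5 and 54.7 CPM against 48.0 and 139 CPM (-1.55 ± 0.17), so replicate 2 was the higher section on both sides and the difference lay within each section. Junb (-1.15 ± 0.14) and Dusp1 (-1.55 ± 0.16) were called with it.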

How the data were processed

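Visium libraries of 2 P0 esophagus sections were analysed. The authors deposited UMI counts per gene and spot, made with Space Ranger 2.0.0 per the file headers, on mm10 per the submitters' processing notes. The sections hold 10261248 and 7357333 UMIs and share 24 spot barcodes, which come from a common set. The members and gene lists were chosen with earlier results of these data known. Named genes are the 12 with the largest change each way among called genes of the same sign in both sections at a mean of at least 20 CPM, up to 4 per list and direction, a fixed set that includes Trp63, Sox2, Lgr5 and Shh, and genes stated as chosen after values were seen.

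Raw counts were summed per section and end of the ratio, filtered with filterByExpr, scaled with TMM and tested in edgeR 4.0.16 with the section as a block, adjusted p under 0.05. Both ends of a section come from that section, which is the source of the pairing. DESeq2 1.42.0 was an alternative. The script was tested on simulated data. CPM values are UMIs of a gene per 1000000 UMIs of a sum. Precision falls with the UMIs behind a value. Intervals for counting error alone are not given because they leave out the spread between the 2 sections. Gene symbols are those of the files, and promoters were matched by symbol.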

Additional observations from a re-analysis of the deposited data

How the results depend on the processing

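Against 1357 and 1853 genes in the main comparison, the calls higher in high-ratio and in low-ratio spots were 177 and 653 with DESeq2's Wald test, 324 and 669 in the 25% of spots with the highest epithelial score, 800 and 1331 with the highest and lowest 50% of epithelial spots, 747 and 1324 within bins of the epithelial score, and 2247 and 1291 with library totals and no scaling factors. With no replicate block they were 1038 and 1578. In the other 10 settings, each count stayed within 1.5 times. The totals setting and the 2 settings on tissue pieces were chosen after seeing the data. Of 156 named genes, 151 were called, 79 of these kept their call in every setting that gave them an adjusted p, and 5 changed sign in some setting: Bmpr1b (-0.073), Id4 (-0.078) and Tagln (-0.033) in the 25% highest, Id4 (-0.15) and Tagln (-0.032) within score bins, and Hbb-bs and Hbb-bt, which ran from -1.41225e-05 to 2.19 and from -0.10 to 1.84 as either section was left out. Among genes not called, Shh ran from -0.12 to 0.62 as either section was left out and was called at 0.56 (adjusted p = 0.0407) within tissue pieces, Lgr5 -0.14 with the ratio taken without Krt15, and Sox2 0.00419514 without scaling factors. The causes were not tested. With 1 section left out no residual degrees of freedom remain, so no count of calls exists for it.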
